A study of Mus musculus with 24 samples.

Results

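The 10 genes described here encode the T-box factors and the other core transcription factors of natural killer (NK) cells: Tbx21, Eomes, Zeb2, Prdm1, Nfil3, Id2, Gata3, Tcf7, Tox and Runx3. They were taken by name from the 38215 genes of the deposited table, and each of the 10 matched 1 row and passed the filter on low counts. The series holds 24 libraries of mouse NK cell poly(A) RNA, sequenced in bulk, in 6 groups of 4. Of these, 4 groups came from spleen: naive WT, naive KO, WT treated with IL-15 and KO treated with IL-15, where KO is loss of FcRγ, the signalling adaptor encoded by Fcer1g. The other groups were WT and KO NK cells from lung that carried tumour, which are labelled naive for treatment. The strain, age and sex of the mice, how FcRγ was removed, how and for how long IL-15 was given, the sort, the tumour and whether each library is a separate animal were not given in the sources used here. The p-values therefore measure the spread between libraries that the labels call biological replicates.

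T-bet, the product of Tbx21, and Eomes are related DNA-binding proteins that share the T-box domain. In NK cells Eomes marks the conventional lineage and is needed to keep its identity, while T-bet drives terminal maturation and exit from tissue, partly through the repressor ZEB2. Blimp-1 (Prdm1) also acts late, whereas Nfil3, Id2, Tcf7, Tox, Gata3 and Runx3 act from the precursor stage onward: Nfil3 commits progenitors, Id2 is a helix-loop-helix protein that restrains E proteins, and TCF-1 (Tcf7) is prominent in early stages and is lowered as cells mature.

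Library totals ran from 9.68 to 32.1 M counts, and 2 libraries, naive KO 1 and lung WT 1, held 9.68 and 9.77 M against a median of 26.68 M. Levels are given in CPM, counts scaled to a library total of 1 M. Fcer1g averaged 730 ± 78.8 CPM (SD, n = 4) in naive WT and 3.77 ± 2.37 in naive KO. The WT and KO means were 274 ± 31.7 and 5.65 ± 1.84 CPM with IL-15, and 595 ± 115 and 14.3 ± 1.61 CPM in lung. No KO library exceeded 16.2 CPM and no WT library was under 253, so the genotype labels held in every library. All 8 NK markers were above 1 CPM in every group. The T cell genes Cd4, Cd8a and Cd8b1 averaged at most 1.41 CPM in any group, but Cd3d averaged 17.9 CPM in naive WT and 33.9 in naive KO. The T cell list of 12 genes summed to 238 to 476 CPM, mostly from Trbc1, Trbc2 and Cd28. Lung libraries also held macrophage transcripts (58.8 to 638 CPM in sum) and lung epithelial transcripts (19.8 to 411 CPM), which summed to at most 27.4 and 7.62 CPM in spleen. The part of these other transcripts in the lung values was not tested.

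Per kilobase of exon, naive WT cells held most of Id2 and Tbx21 among the 10. This scale divides by the joined length of all annotated exons of a gene. That length can exceed the transcript in use, so ranks between genes are approximate. Id2 stood at 297 ± 21.8 CPM per kb (SD, n = 4) and Tbx21 at 262 ± 26.8, ranks 254 and 284 of 14063 genes. Eomes followed at 150 ± 19.4 and Tcf7 at 114 ± 12.6 CPM per kb, ranks 428 and 541. Runx3 had 41.4 ± 3.76, Nfil3 32.3 ± 2.68, Gata3 18.4 ± 2.82 and Prdm1 12.4 ± 0.499 CPM per kb. Tox, an HMG-box factor of early lymphoid development, had 7.68 ± 0.56 and Zeb2 had 3.56 ± 0.451 CPM per kb, the latter at rank 7170. Under IL-15 Tbx21 stood at rank 1021 in WT and 866 in KO, behind Eomes at ranks 450 and 441. In lung Nfil3 reached rank 542 in WT and 516 in KO.

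**Figure D1:**
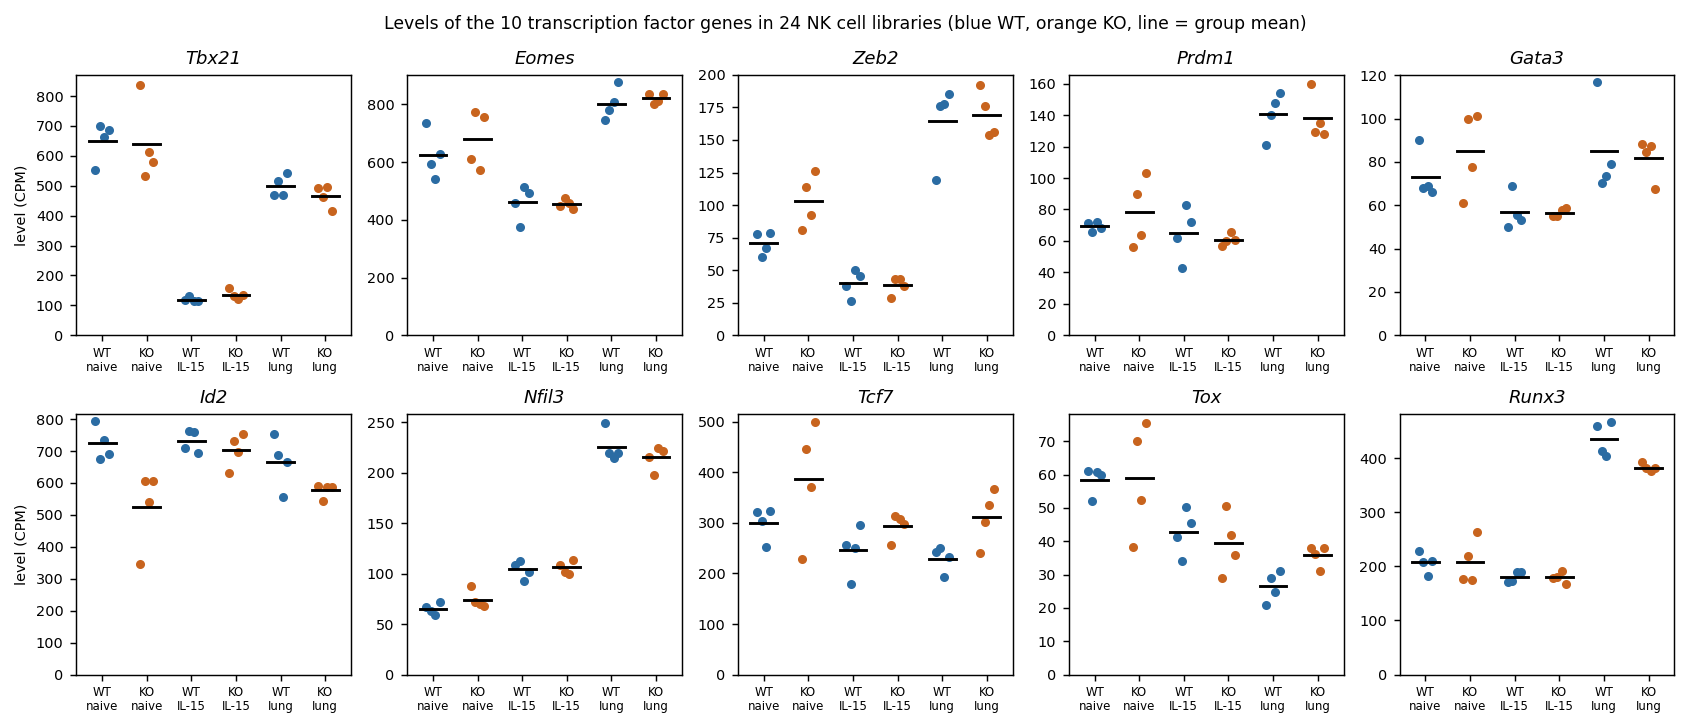
Level of each of the 10 genes in CPM on TMM-scaled totals (vertical axes, starting at 0) in every library, by group. Points are libraries (blue WT, orange KO) and black lines are means of 4 libraries. Tbx21 is low in all 8 IL-15 libraries (113 to 158 CPM), and Zeb2, Prdm1, Nfil3 and Runx3 are high in the 8 lung libraries.

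The stretches before the start sites of the T-box pair are printed because these related genes moved by different amounts below. The bases come from RefSeq (build GRCm38.p6), in which 9 of the 10 genes matched, and each run is the 250 bases before the listed start, 5′ to 3′ on the gene's strand. Tbx21 lies on the minus strand of chromosome 11 and its stretch is chr11:97115332-97115581. Eomes lies on the plus strand of chromosome 9 and its stretch is chr9:118477939-118478188.
Tbx21: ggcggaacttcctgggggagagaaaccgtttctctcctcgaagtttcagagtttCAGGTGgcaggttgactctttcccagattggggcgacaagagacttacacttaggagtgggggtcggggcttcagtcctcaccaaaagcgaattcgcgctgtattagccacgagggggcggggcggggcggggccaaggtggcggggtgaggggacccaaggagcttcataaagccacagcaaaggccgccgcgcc
Eomes: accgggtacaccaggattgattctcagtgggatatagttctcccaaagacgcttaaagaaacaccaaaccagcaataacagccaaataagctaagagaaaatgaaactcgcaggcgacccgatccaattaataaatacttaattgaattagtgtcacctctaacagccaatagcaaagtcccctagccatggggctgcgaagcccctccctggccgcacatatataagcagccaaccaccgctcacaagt
Capitals mark CAGGTG, the E-box that ZEB and E proteins read, written CACCTG on the other strand. It stands 196 to 191 bases before the Tbx21 start, and 17.2% of 32851 such stretches hold it. No letters of the T-box motif GGTGTGA were found on either strand of these stretches or of any of the 9 matched genes (3.3% of all stretches hold it). The Tbx21 stretch has 60.8% G and C and 16 CpG pairs, the Eomes stretch 46.4% and 8, against medians of 52.4% and 6 over all stretches. A match describes the letters and is not evidence of binding.

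Naive spleen was the state in which KO against WT gave the most calls over all genes, and 1 of the 10 genes passed there: Id2 was lower. The call threshold was an adjusted p of 0.05, and 20.3% of 13344 tested genes passed (9.22% lower, 11.1% higher), so the share among the 10 was below the background. Id2 stood at 794, 675, 736 and 692 CPM in naive WT and at 345, 605, 540 and 607 CPM in naive KO. All 4 KO libraries lay below the 4 WT libraries, and the lowest was naive KO 1, the shallow library. The fitted log2 change was −0.49 ± 0.14 (SE; edgeR quasi-likelihood, adjusted p = 0.021). It became −0.20 (adjusted p = 0.152) with an offset for exon length and GC content, −0.48 (adjusted p = 0.059) when the 2 groups were fitted alone, and −0.45 (adjusted p = 0.0514) without naive WT 1.

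Zeb2 and Tcf7 stood above WT in naive KO without passing the test. Zeb2 was at 78.1, 60.4, 66.7 and 78.8 CPM in WT and at 80.9, 114, 92.4 and 126 CPM in KO, so the groups did not overlap. Its log2 change was 0.52 ± 0.18 (adjusted p = 0.0538), with a 95% interval from 0.16 to 0.87. It passed in the fit of all 24 libraries (0.54, adjusted p = 0.0338) and without naive KO 1 (0.62, adjusted p = 0.027), and it was 0.23 with the length and GC offset. Tcf7 was at 321, 304, 252 and 323 CPM in WT, and in KO at 229 in library 1 and at 446, 372 and 500 in the others. Its change was 0.34 ± 0.19 (adjusted p = 0.202), and 0.53 (adjusted p = 0.0166) without naive KO 1. Naive KO 1 was the lowest of its group for Id2, Tcf7, Tox, Zeb2, Prdm1 and Gata3 and the highest for Tbx21 (836 CPM) and Nfil3 (88 CPM), and mitochondrial transcripts were 1.18% of its counts against up to 9.28% in its group. Across the 10 genes the median coefficient of variation was 21.8% for naive KO against 9.64% for naive WT.

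The T-box genes themselves gave intervals that span 0 in naive cells. Tbx21 had a mean of 651 ± 66.6 CPM in WT and 641 ± 134 in KO (log2 change −0.05, 95% interval −0.32 to 0.21). Eomes had 624 ± 80.7 and 678 ± 102 CPM (0.09, interval −0.14 to 0.33). These libraries do not exclude differences inside these bounds. Prdm1, Gata3, Nfil3, Tox and Runx3 had changes between −0.02 and 0.19. Markers of type 1 innate lymphoid cells (ILC1), which share several of these factors, summed to 103 to 145 CPM in naive KO against 72.3 to 86.8 in naive WT, and their part in the naive values was not tested. In bulk RNA, fewer cells of a type and less RNA per cell cannot be told apart.

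Under IL-15 none of the 10 genes passed between KO and WT in edgeR, where 0.135% of all genes did (0.0824% higher, 0.0525% lower). The adjusted p was 1 for each of the 10, 0 had an unadjusted p under 0.05, and DESeq2 and voom also called 0. Tbx21 stood at 118, 132, 113 and 113 CPM in WT and at 158, 130, 120 and 134 CPM in KO, a change of 0.17 with an interval from −0.09 to 0.44. Zeb2, which had stood apart in naive cells, changed by −0.07 ± 0.18. Id2 changed by −0.07 ± 0.14. The change of the KO effect from naive to IL-15 was −0.58 ± 0.26 for Zeb2 and 0.42 ± 0.20 for Id2 on the log2 scale, with adjusted p = 0.266 and 0.302, and 0 of the 10 passed that edgeR test (2 at an unadjusted p under 0.05, and 1, Zeb2, with voom), where 1.54% of all genes did (0.472% higher, 1.06% lower).

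In lung, too, 0 of the 10 passed between KO and WT in edgeR, DESeq2 and voom, against 0.625% of all genes in edgeR (0.305% higher, 0.32% lower). Tcf7 and Tox had unadjusted p-values under 0.05. Tox was at 21, 29.1, 24.7 and 31 CPM in WT and at 38.1, 36.2, 31.1 and 38 CPM in KO. These groups touched without overlapping, and the change was 0.43 ± 0.14 (adjusted p = 0.264). Tcf7 was at 242, 250, 193 and 233 CPM in WT and 241, 302, 335 and 367 CPM in KO. Here 3 of 4 KO libraries lay above all WT libraries, and the change was 0.44 ± 0.14 (adjusted p = 0.261). Without the shallow library lung WT 1, the edgeR change was 0.46 (adjusted p = 0.0522) for Tcf7 and 0.34 (adjusted p = 0.123) for Tox. Over all genes 1.87% were then higher and 1.47% lower. Runx3, a runt-domain factor, was lower in each KO library (376 to 392 CPM) than in any WT library (404 to 467), with a change of −0.19 ± 0.10 (adjusted p = 0.488). T cell markers summed to 355 to 476 CPM in KO lung against 288 to 399 in WT lung, and ILC1 markers to 93.7 to 147 against 53.7 to 73.2. Most of the ILC1 difference lay in Il7r, which averaged 69.8 CPM in KO lung against 24.7 in WT lung. Of that list only Itga1 went the other way, at 6.61 against 7.18 CPM. Among the T cell genes Cd3d, Cd3g and Cd3e averaged 12.1, 9.27 and 4.79 CPM in KO lung against 8.12, 3.94 and 1.98 in WT lung. Trbc2 went the other way, at 55.9 against 60.9 CPM. Macrophage markers summed to 154 to 638 CPM in KO lung against 58.8 to 136 in WT lung, and B cell markers to 141 to 188 against 111 to 138, both without overlap. Mitochondrial transcripts were 8.49 to 10.73% of counts in KO lung and 3.17 to 6.14% in WT lung. The part of these in the Tcf7, Tox and Runx3 values was not tested.

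Treatment with IL-15 separated the T-box pair. In WT spleen 6 of the 10 genes passed between IL-15 and naive cells, 1 higher and 5 lower, where 52.4% of all genes passed (26.4% higher, 26% lower). In KO spleen 7 passed, 1 higher and 6 lower, against 41.7% (20.7% higher, 21% lower). The median log2 change of the 10 was −0.41 in WT and −0.56 in KO, beside −0.01 over all genes in both. Tbx21, Eomes, Zeb2, Gata3 and Tox fell and Nfil3 rose in both genotypes.

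Tbx21 moved most. From 554, 699, 663 and 687 CPM in naive WT it went to 118, 132, 113 and 113 CPM under IL-15, a fall of 2.54 ± 0.14 on the log2 scale or 5.81-fold (adjusted p = 7.29e-11). In KO it went from 836, 534, 612 and 581 to 158, 130, 120 and 134 CPM, a fall of 2.31 ± 0.14 or 4.95-fold (adjusted p = 2.55e-10). No IL-15 library came near a naive one. Eomes fell far less: its naive WT libraries held 734, 592, 543 and 627 CPM and its IL-15 WT libraries 458, 374, 514 and 494. That was a fall of 0.53 ± 0.12 in WT (1.44-fold, adjusted p = 0.00135) and of 0.64 ± 0.12 in KO (adjusted p = 0.000331). The sum of 8 NK markers moved with them, from a mean of 21823 CPM in naive WT to 8543 under IL-15, and from 17953 to 7825 in KO. The part of this marker shift in the values of the 10 genes was not tested.

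Zeb2, a zinc-finger repressor that acts downstream of T-bet, fell by 0.92 ± 0.18 in WT (adjusted p = 0.000391) and by 1.5 ± 0.19 in KO (adjusted p = 3.46e-06). It stood at 37.9, 26.1, 50.5 and 45.2 CPM in IL-15 WT and at 28.9, 43.4, 43.1 and 38.2 in IL-15 KO, below every naive library. Prdm1, the other late factor, was at 69.4 ± 2.79 CPM in naive WT and 64.9 ± 17 under IL-15 and did not pass in either genotype (−0.18, adjusted p = 0.411 in WT; −0.44, adjusted p = 0.0582 in KO). It passed in both with the length and GC offset (−0.42, adjusted p = 0.0244, and −0.64, adjusted p = 0.00157), and in KO also without naive KO 1 (−0.57, adjusted p = 0.012). Tox fell by 0.53 ± 0.19 in WT and by 0.66 ± 0.19 in KO. Gata3, a zinc-finger factor that lymphoid progenitors and T cells also use, fell by 0.44 ± 0.15 and 0.66 ± 0.15. The WT falls of Gata3 and Tox turned on single libraries and, for Gata3, also on the set of libraries fitted. Without naive WT 1, IL-15 WT 1 or IL-15 WT 4 the adjusted p of Gata3 was 0.0848, 0.0704 and 0.0562. In the edgeR fit of all 24 libraries Gata3 did not pass (−0.36, adjusted p = 0.0661), and it passed in 15 of 20 alternatives. The adjusted p of Tox was between 0.0508 and 0.0667 without any one of naive WT 3, naive WT 4, IL-15 WT 1 and IL-15 WT 2.

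Nfil3, a basic leucine zipper factor, rose under IL-15. It stood at 66.9, 63.1, 59.4 and 72.1 CPM in naive WT and at 109, 113, 92.6 and 102 CPM in IL-15 WT, with no overlap. The rise was 0.59 ± 0.11 in WT (adjusted p = 0.000182) and 0.45 ± 0.11 in KO (adjusted p = 0.00276). Id2 did not pass in WT (724 ± 53.2 CPM naive, 731 ± 34.9 under IL-15, interval of the log2 change −0.35 to 0.21). In KO it stood at 524 ± 124 and 703 ± 54.2 CPM (0.35 ± 0.14, adjusted p = 0.0538). That change passed in 11 of 20 alternatives, and without naive KO 1 it was 0.19 (adjusted p = 0.118). Tcf7 fell by 0.47 ± 0.19 in KO at an adjusted p of 0.0485, but not with a replicate block (adjusted p = 0.0586) or without any one of 7 of the 8 libraries; in WT its change was −0.38 (adjusted p = 0.0987). Runx3 changed by −0.28 ± 0.12 in both genotypes (adjusted p = 0.0567 and 0.0662), and passed in both with the offset (−0.69 and −0.51).

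**Figure D2:**
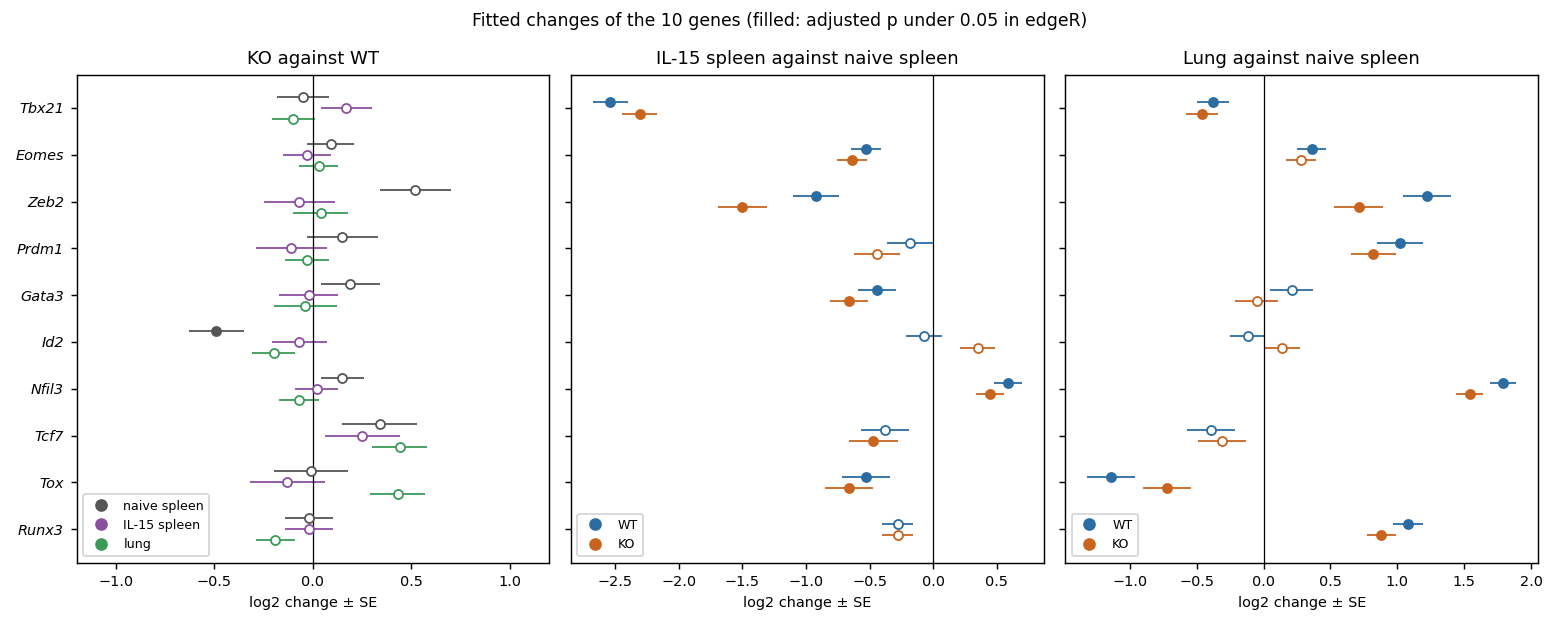
Fitted log2 change ± SE of each gene for KO against WT in 3 states (left), IL-15 against naive spleen (middle) and lung against naive spleen (right). Filled points passed an adjusted p of 0.05 in edgeR and open points did not. Id2 in naive spleen is the single filled point on the left, and Tbx21 at −2.54 in WT and −2.31 in KO stands alone in the middle.

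In lung Zeb2, Prdm1, Nfil3 and Runx3 were high. Against naive spleen 7 of the 10 genes passed in WT, 5 higher and 2 lower, where 49.2% of all genes passed (29.2% higher, 20% lower). In KO 6 passed, 4 higher and 2 lower, against 42.4% (24.3% higher, 18.1% lower). The median change of the 10 was 0.29 in WT and 0.21 in KO, beside 0.08 and 0.05 over all genes. Zeb2, Prdm1, Nfil3 and Runx3 rose and Tbx21 and Tox fell in both genotypes.

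Nfil3 had the largest rise of the 10. It was at 249, 220, 215 and 220 CPM in WT lung and at 216, 198, 225 and 222 CPM in KO lung, against 59.4 to 72.1 and 68 to 88 in naive spleen. The log2 rise was 1.79 ± 0.10 in WT (3.46-fold, adjusted p = 4.44e-13) and 1.54 ± 0.10 in KO (2.9-fold, adjusted p = 1.05e-11). Every lung library lay above every spleen library, those with IL-15 included (92.6 to 114 CPM).

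Zeb2 stood at 119 in lung WT 1 and at 176, 178 and 185 CPM in the other WT lung libraries, and at 192, 176, 154 and 156 CPM in KO lung. Its rise was 1.22 ± 0.18 in WT (adjusted p = 4.6e-06) and 0.71 ± 0.18 in KO (adjusted p = 0.00232), and the difference between the genotypes in this rise did not pass (−0.50 ± 0.25, adjusted p = 0.352). Of the 10, 0 passed that edgeR test of the difference (0 at an unadjusted p under 0.05, and 1, Zeb2, with voom), against 1.15% of all genes (0.168% higher, 0.981% lower). Prdm1 rose by 1.02 ± 0.17 in WT and by 0.82 ± 0.17 in KO, from 69.4 ± 2.79 and 78.1 ± 21.7 CPM to 141 ± 14.3 and 138 ± 14.7. Macrophages also express Zeb2. The macrophage list summed to 58.8 CPM at the least and 638 CPM at the most over the lung libraries, while Zeb2 spanned 119 to 192 CPM. The part of macrophage RNA in its lung level was not tested.

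Runx3 rose by 1.08 ± 0.11 in WT lung (adjusted p = 1.69e-08) and by 0.88 ± 0.11 in KO lung (adjusted p = 7.01e-07). It was at 460, 414, 404 and 467 CPM in WT lung against 183 to 229 in naive WT. The stretch before its distal start, chr4:135120395-135120644 on the plus strand, is printed because it holds the letters its own family reads.
Runx3: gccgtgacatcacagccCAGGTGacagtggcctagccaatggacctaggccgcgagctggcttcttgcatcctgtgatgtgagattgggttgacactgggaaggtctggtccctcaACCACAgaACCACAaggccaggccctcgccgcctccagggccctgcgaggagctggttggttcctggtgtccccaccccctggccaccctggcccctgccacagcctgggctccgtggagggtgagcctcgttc
Capitals mark the RUNX motif TGTGGT, which reads ACCACA on the gene strand, at 134 to 129 and 126 to 121 bases before the start. The E-box CAGGTG, also in capitals, stands at 233 to 228. The RUNX letters occur in 14% of all 32851 stretches, and among the 9 matched genes in Runx3 alone. The STAT5 letters TTCNNNGAA, which both strands share, occur in 7% of stretches and, of the 9, in 2 overlapping stretches of Zeb2, as TTCTGTGAA at 147 to 139 bases before the second of its 4 listed starts. Those 2 starts lie inside the Zeb2 gene, 4116 and 4142 bases from the gene's annotated start. The letters of TCF and LEF proteins (CTTTGA, 13.8% of stretches), GATA proteins (AGATAA, 10%) and E4BP4, the product of Nfil3 (TTACGTAA, 0.1%), were searched too, and 0 of the 9 genes hold them.

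Of the T-box pair, Tbx21 fell in lung in both genotypes, and the Eomes values turned on the scaling. Tbx21 was lower than in naive spleen, at 470, 515, 470 and 544 CPM in WT and 491, 461, 497 and 416 in KO. That was a fall of 0.38 ± 0.12 in WT (adjusted p = 0.012) and of 0.46 ± 0.12 in KO (adjusted p = 0.00382). Eomes stood at 746, 779, 808 and 878 CPM in WT lung and rose by 0.36 ± 0.11 (adjusted p = 0.0105). In KO lung it was at 835, 800, 812 and 837 CPM with a change of 0.28 ± 0.11 (adjusted p = 0.0547). With an offset for exon length and GC content its change was −0.06 in WT (adjusted p = 0.622) and −0.05 in KO (adjusted p = 0.692), while Tbx21 stayed lower. The Eomes call did not hold when the 2 WT groups were fitted alone (0.33, adjusted p = 0.0539). Tox fell by 1.14 ± 0.18 in WT (58.5 ± 4.26 to 26.5 ± 4.47 CPM, adjusted p = 1.4e-05) and by 0.72 ± 0.18 in KO (59 ± 17 to 35.8 ± 3.28 CPM, adjusted p = 0.00225). Tcf7 did not pass in lung, with changes of −0.39 in WT (adjusted p = 0.076) and −0.31 in KO (adjusted p = 0.16), and passed in both with the offset (−0.50, adjusted p = 0.0138, and −0.46, adjusted p = 0.0231).

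Several of these values moved with an offset for exon length and GC content. Genes with at least 10 kb of exon had a median change of 0.56 in WT lung against naive spleen, and genes under 1.5 kb one of −0.21. The same medians were 0.55 and −0.34 for IL-15 in WT and 0.34 and −0.30 for naive KO against WT. Among the 10, Zeb2 has the longest exon model (19.94 kb) and Nfil3 the shortest (2.03 kb). Transcript GC content was lowest for Zeb2 (40.6%) and highest for Tbx21 (59.3%). The offset fits length and GC content together, so their parts in the moves below were not told apart. With the length and GC offset in WT lung, Runx3 went from 1.08 to 0.36, Zeb2 from 1.22 to 0.57 and Tbx21 from −0.38 to −1.08. Nfil3 went to 1.51, Prdm1 to 0.88 and Tox to −1.36, and each still passed. In KO lung Runx3 went from 0.88 to 0.36, Zeb2 from 0.71 to 0.25 and Tbx21 from −0.46 to −1.0. Over all genes the offset turned the lung split to 21.3% higher and 29.9% lower in WT and to 18.5% and 31.6% in KO. Under IL-15 that split became 20.5% higher and 34.4% lower in WT and 16.8% and 32.9% in KO, and between KO and WT in naive spleen 7.56% and 8.14%. Under IL-15 in WT the offset took Zeb2 from −0.92 to −1.75 and Runx3 from −0.28 to −0.69 (adjusted p = 2.83e-05), and Tbx21 to −2.80. Mitochondrial transcripts were 4.89 to 6.31% of counts in naive WT, 1.76 to 2.78% in IL-15 WT and 3.17 to 6.14% in lung WT, and their part in the length trend was not tested.

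**Figure D3:**
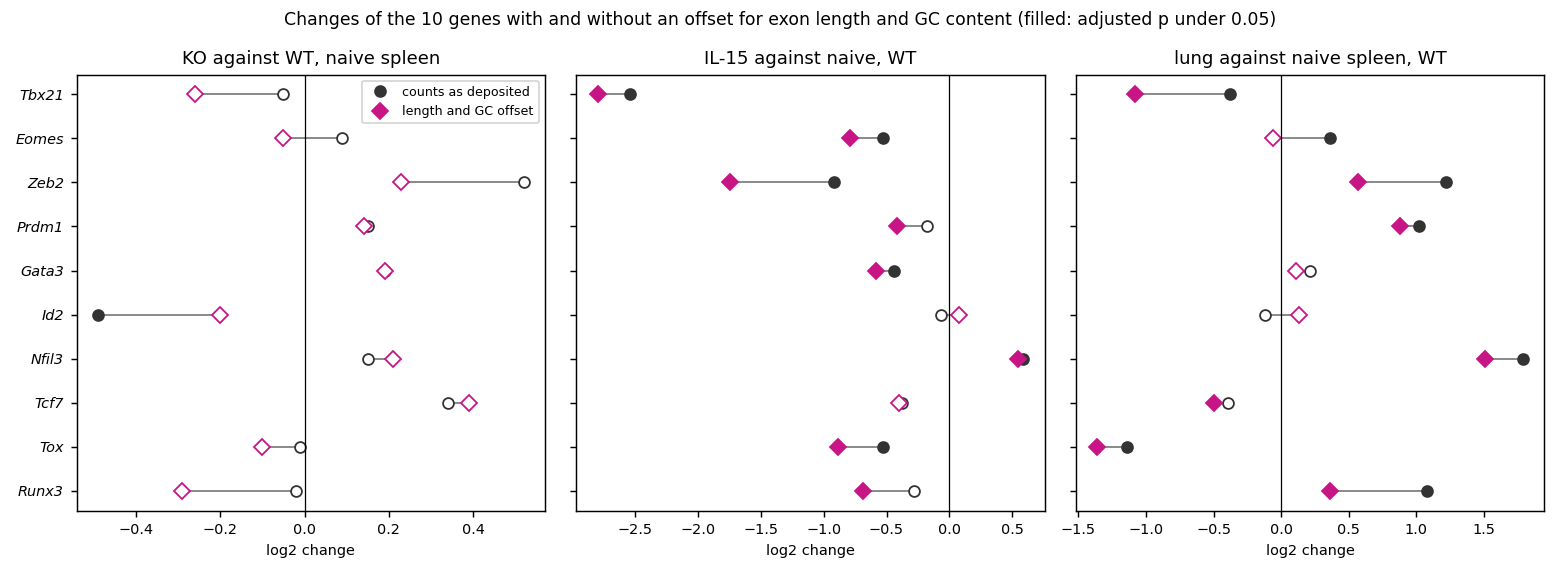
Log2 change of each gene from the counts as deposited (dark circles) and with an offset for exon length and GC content (pink diamonds), in 3 comparisons. Filled symbols passed an adjusted p of 0.05. In WT lung Eomes moves from 0.36 to −0.06 and Runx3 from 1.08 to 0.36, and in naive KO Id2 moves from −0.49 to −0.20.

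Lung was also set against IL-15 spleen. In WT 7 of the 10 genes were higher and 1 lower, where 44.3% of all genes passed (23.8% higher, 20.6% lower). In KO 7 were higher and 0 lower, against 43.8% (23.3% higher, 20.5% lower). Tbx21, Eomes, Zeb2, Prdm1, Gata3, Nfil3 and Runx3 were higher in lung in both genotypes. Tbx21 was higher by 2.07 ± 0.13 in WT and 1.78 ± 0.13 in KO, and Zeb2 by 2.05 ± 0.19 and 2.14 ± 0.19. Tox was lower in WT (−0.69 ± 0.18, adjusted p = 0.00328). Id2 and Tcf7 passed in neither genotype.

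Ordering the 6 group means showed where neighbours could be told apart, in 1 fit of all 24 libraries. For Tbx21 the steps from IL-15 KO (135 CPM) to lung KO (466 CPM) and from lung WT (500.0 CPM) to naive KO (641 CPM) differed (adjusted p = 1.27e-11 and 0.022), and WT and KO of 1 state did not. Zeb2 gave 3 separate steps: IL-15 WT to naive WT (39.9 to 71 CPM, adjusted p = 0.000442), naive WT to naive KO (103 CPM, adjusted p = 0.0338) and naive KO to lung WT (165 CPM, adjusted p = 0.00395, with lung WT 1 inside the naive KO range). For Prdm1 and Runx3 the step from naive KO to lung KO was the one that differed (adjusted p = 0.000308 and 7.01e-07). Nfil3 had a step up from naive KO to IL-15 WT (74.3 to 104 CPM) and another to lung KO (215 CPM). Neighbouring means of Id2, Tcf7 and Gata3 did not differ anywhere along their orders, from 524 to 731, 230.0 to 387 and 56.6 to 85 CPM.

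Ratios within a library do not depend on its total. They can still move with exon length and GC content, and were not run with that offset. The log2 ratio of Eomes to Tbx21 was −0.06 ± 0.32 (SD, n = 4) in naive WT and 0.09 ± 0.45 in naive KO. With IL-15 it was 1.94 ± 0.31 in WT and 1.76 ± 0.19 in KO, and the lung libraries averaged 0.68 ± 0.07 and 0.82 ± 0.13. These ratios use CPM and not levels per length, so their steps between states can be read and their 0 cannot. Every IL-15 library lay above every lung library, and every lung library above every naive one. Each of the 6 contrasts between states reached the smallest p that 4 against 4 libraries can give in an exact two-sided permutation test, 0.0286 (0.0406 adjusted over 27 tests). KO against WT did not pass in any state (exact permutation, adjusted p = 0.741, 0.354 and 0.11).

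Zeb1, which encodes the other ZEB repressor and is used at earlier stages, was set beside Zeb2. Zeb1 rose by 0.42 ± 0.15 under IL-15 in WT (37.6 to 53.5 CPM, adjusted p = 0.0264), although it was −0.15 (adjusted p = 0.289) with the length and GC offset. In WT lung it stood at 39.7 CPM, a change of 0.08 from naive spleen that did not pass (adjusted p = 0.671), where Zeb2 rose by 1.22. The log2 ratio of Zeb1 to Zeb2 ran from −1.11 to −0.84 in naive WT, 0.21 to 0.64 in IL-15 WT and −2.25 to −1.77 in lung WT, with no overlap between states. In naive KO it was −1.31 to −1.14, below every naive WT library, and the difference of −0.29 had an exact permutation p of 0.0286 (0.0406 adjusted). Under IL-15 and in lung KO against WT did not pass for this ratio, with differences of −0.03 and −0.01 (exact permutation, adjusted p = 0.831 and 0.914). Tcf7 to Zeb2, a ratio of an early to a late factor, was 2.64 ± 0.23 in IL-15 WT and 2.95 ± 0.15 in IL-15 KO, without overlap (exact permutation p = 0.0286, 0.0406 adjusted). Every test at this smallest p shares that adjusted value, and most of them compare states, so it rests on the pool of 27 tests. In lung the Tcf7 to Zeb2 ratio was 0.50 ± 0.38 in WT and 0.87 ± 0.41 in KO (exact permutation, adjusted p = 0.316). In naive spleen the KO mean was the lower one, at 1.87 against 2.08 in WT, and the difference of −0.21 did not pass (exact permutation, adjusted p = 0.335). With the length and GC offset the log2 change in naive KO was 0.39 for Tcf7 and 0.23 for Zeb2, against 0.34 and 0.52 without it. The order of the naive ratios therefore turned on the scaling.

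**Figure D4:**
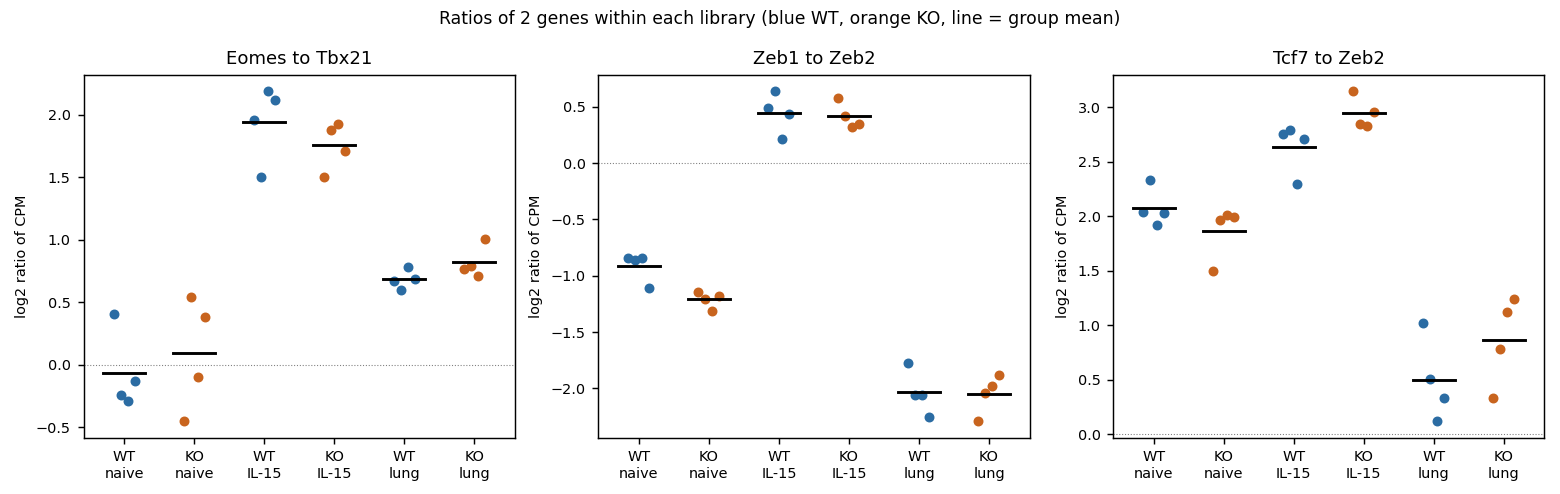
Log2 ratio of CPM of 2 genes within each library, by group, for Eomes to Tbx21, Zeb1 to Zeb2 and Tcf7 to Zeb2. Points are libraries (blue WT, orange KO) and lines are means of 4. Eomes to Tbx21 lies between 1.5 and 2.19 under IL-15 and between −0.45 and 0.54 in naive spleen.

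Genes that T-bet and Eomes are reported to drive fell with Tbx21 under IL-15. Of 18 such genes outside the 10, 16 fell and 1 rose in WT (median log2 change −1.46), and 17 fell and 1 rose in KO (median −1.49). The median over all genes was −0.01, with 26.4% higher and 26% lower in WT and 20.7% and 21% in KO. The log2 change of Cma1, a chymase gene, was −5.71 ± 0.22 in WT and −6.13 ± 0.23 in KO. That of S1pr5, the receptor with which NK cells leave tissue, was −4.24 ± 0.15 and −4.16 ± 0.14. Klrg1, a receptor of mature cells, had −2.5 ± 0.15 and −2.32 ± 0.15, and Nkg7, a granule protein gene, −1.98 ± 0.15 and −1.9 ± 0.15. Gzmb, which encodes granzyme B, was the gene that rose, by 1.51 ± 0.17 and 1.91 ± 0.17. Nkg7, Il2rb, Gzma and Prf1 also stand in the NK marker list above. The counts were the same with the length and GC offset and without the 2 shallow libraries.

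In lung these 18 genes split. In WT 5 rose and 7 fell (median −0.20), and in KO 5 rose and 6 fell (median −0.13), with medians of 0.08 and 0.05 over all genes. With the length and GC offset 7 rose and 8 fell in WT, and 6 rose and 9 fell in KO, beside the turned split of all genes given above. Ifng, the interferon gamma gene, rose by 2.94 ± 0.19 in WT and 2.16 ± 0.19 in KO, and Fasl, a death ligand gene, by 1.39 ± 0.10 and 1.55 ± 0.10. Cxcr3, a chemokine receptor gene, had changes of −2.35 ± 0.18 and −2.08 ± 0.18, and Klra1, which encodes a Ly49 receptor, −1.39 ± 0.16 and −0.98 ± 0.16. Between KO and WT, 1 rose (Itga2, 0.69 ± 0.23) and 5 fell in naive spleen, among them Klra8 (−1.0 ± 0.15), Klra4 (−0.95 ± 0.17) and Gzma (−0.53 ± 0.16). The shares of all genes there were 11.1% higher and 9.22% lower, and 7.56% and 8.14% with the length and GC offset. With that offset the split of the 18 genes was 3 higher and 2 lower, and Gzma stood at 0.08 (adjusted p = 0.745). Without the 2 shallow libraries the split was 1 and 3. In edgeR 0 of the 18 passed between KO and WT under IL-15 (4 at an unadjusted p under 0.05) and 0 in lung (7 at an unadjusted p under 0.05).

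**Figure D5:**
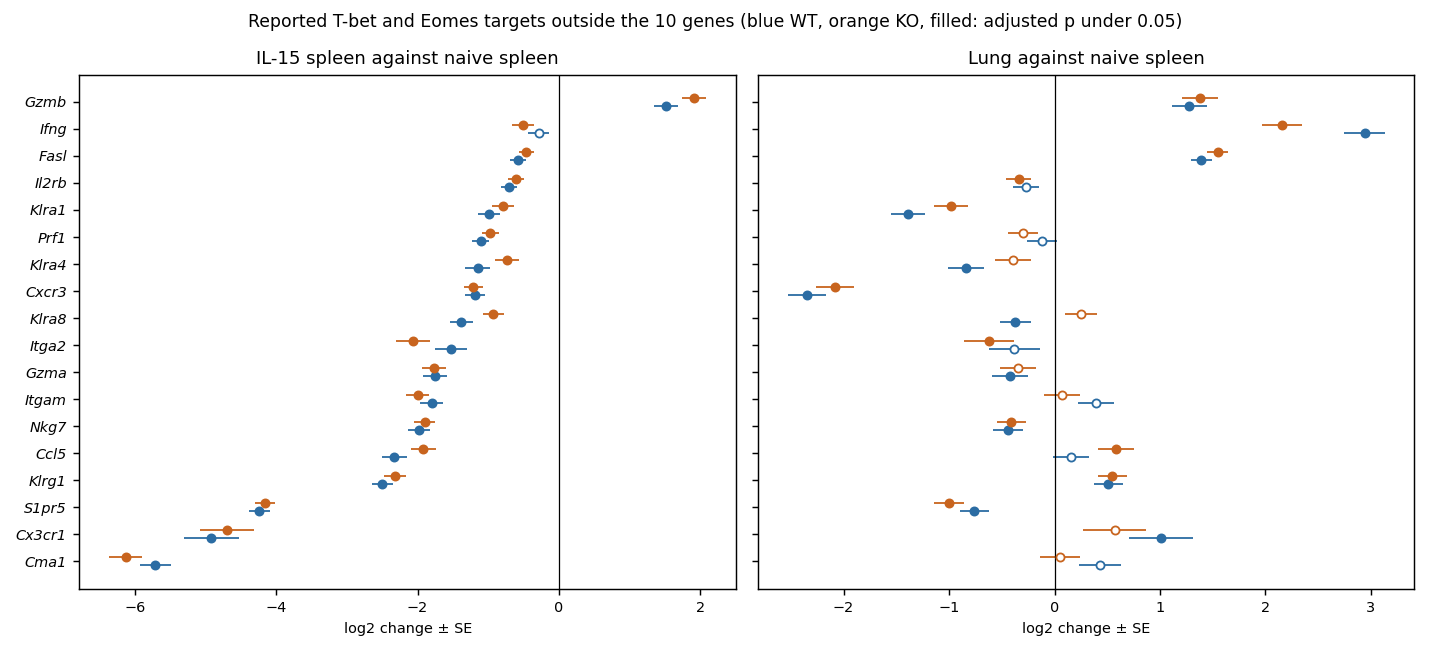
Log2 change ± SE of the 18 reported T-bet and Eomes targets outside the 10 genes for IL-15 against naive spleen (left) and lung against naive spleen (right), in WT (blue) and KO (orange). Filled points passed an adjusted p of 0.05. On the left every filled point but Gzmb lies below 0, and on the right Ifng and Cxcr3 mark the extremes.

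Family relatives of the 10 gave counts that turned on the scaling, and so did the counts over all genes. Of 41 listed relatives in the same families, 21 were tested in spleen. Under IL-15 8 rose and 3 fell in WT, and 3 rose and 4 fell in KO, but with the length and GC offset the WT split was 3 and 9 and the KO split 3 and 7. Over all genes the WT split went from 26.4% higher and 26% lower to 20.5% and 34.4% with that offset, and the KO split from 20.7% and 21% to 16.8% and 32.9%. Id3, the relative of Id2, had changes of −3.24 ± 0.60 in WT and −4.10 ± 0.62 in KO, from 2.48 and 4.26 CPM to 0.273 and 0.254. Lef1, the relative of Tcf7, rose by 0.88 ± 0.21 and 0.84 ± 0.21, the former at 0.42 (adjusted p = 0.0782) with the offset. Gata2 and Gata6, at or below 2.22 CPM in naive cells, fell in both genotypes. In lung 15 of 27 tested relatives rose in WT and 17 in KO, with 0 lower. With lung libraries in the fit 27 relatives passed the filter, against 21 in spleen. Any that entered through their lung level could hardly be lower there. Among the 19 that averaged at least 1 CPM, 11 rose in WT and 12 in KO. With the offset the splits of the 27 were 9 higher and 5 lower in WT and 12 higher and 3 lower in KO. The split of all genes turned in the same way, in WT from 29.2% higher and 20% lower to 21.3% and 29.9%, and in KO from 24.3% and 18.1% to 18.5% and 31.6%. Runx2 rose by 0.81 ± 0.11 in WT lung and 0.59 ± 0.11 in KO lung.

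Of 12 tested partners and inhibitors, 3 rose and 3 fell between KO and WT in naive spleen. Over all genes 11.1% were higher and 9.22% lower. Zfpm1, which encodes FOG1, a cofactor of GATA proteins, rose by 1.27 ± 0.24, Tle3, a corepressor gene, by 0.66 ± 0.14 and Tcf3, the E protein gene whose product Id2 restrains, by 0.62 ± 0.14. Cbfb, which encodes the shared subunit of RUNX complexes, changed by −0.59 ± 0.15, Ctbp2, a corepressor gene, by −0.60 ± 0.16 and Ctnnb1, which encodes beta-catenin, by −0.29 ± 0.09. With the length and GC offset 1 was higher (Zfpm1, 0.73) and 5 were lower, against 7.56% and 8.14% of all genes. In edgeR 0 of the 12 passed between KO and WT under IL-15 (0 at an unadjusted p under 0.05) and 0 in lung (2 at an unadjusted p under 0.05, Cbfb and Ctbp2). In WT lung against naive spleen 7 rose and 2 fell, and with the offset 3 rose and 6 fell, where the split of all genes turned as given above. The KO effect on Zfpm1 was smaller in lung than in naive spleen (−1.24 ± 0.31, adjusted p = 0.0445), a difference of −0.85 (adjusted p = 0.0966) with the offset.

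Of 15 genes linked to TCF-1, 4 rose and 2 fell between KO and WT in naive spleen. There 11.1% of all genes were higher and 9.22% lower. Under IL-15 1 of the 15 rose (0.0824% of all genes), and in lung 3 rose (0.305% of all genes). With the length and GC offset 5 rose and 0 fell in naive spleen, against 7.56% and 8.14% of all genes. Slamf6, a receptor gene, rose in each state, by 1.34 ± 0.17, 1.47 ± 0.18 and 2.27 ± 0.23. It was the 1 gene counted under IL-15 and 1 of the 3 in lung. Its position on the chromosome relative to Fcer1g was not examined, and a link of its rise to TCF-1 was not tested. Il7r, the interleukin-7 receptor gene, rose in lung by 1.49 ± 0.18, and Kit, a growth factor receptor gene, by 0.71 ± 0.12. Tcf7 itself did not pass in any of these 3 comparisons. Il7r is also one of the ILC1 markers.

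Of 48 other lymphoid factors tested in spleen, 11 rose and 1 fell in naive KO (7 and 3 with the offset), where all genes had 11.1% higher and 9.22% lower (7.56% and 8.14%). Bcl11b, Notch1, Bach2 and Rora, all of which T cells or other innate lymphocytes also use, rose by 1.61 ± 0.26, 1.27 ± 0.19, 1.02 ± 0.17 and 1.01 ± 0.18. T cell markers summed to 301 to 356 CPM in naive KO and to 241 to 314 in naive WT. Within that list Cd3d, Cd3g and Cd3e averaged 33.9, 15.7 and 5.88 CPM in naive KO and 17.9, 7.4 and 1.78 in naive WT. Trbc2 went the other way, at 58.1 CPM in naive KO and 78.9 in naive WT. The part of T cell RNA in the rises of Bcl11b, Notch1, Bach2 and Rora was not tested. Under IL-15 14 rose and 18 fell in WT (12 and 27 with the offset). The shares of all genes were 26.4% and 26%, and 20.5% and 34.4% with the offset. Irf4 rose by 3.56 ± 0.25, Myc rose by 1.69 ± 0.12 and Klf2 fell by 4.92 ± 0.19. In WT lung 30 of 50 rose and 6 fell (24 and 19 with the offset), against 29.2% and 20% of all genes (21.3% and 29.9%). Among the 45 that averaged at least 1 CPM, 27 rose and 6 fell. The rises were led by Nr4a1 (5.14 ± 0.19) and Bhlhe40 (2.78 ± 0.11), both genes of the early response to stimulation. These sizes set the scale for the 10 genes: the largest change among them, Tbx21 under IL-15, was smaller than those of Klf2, Irf4 and Nr4a1.

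For each of the 10, the 3 genes with the nearest profile over the 24 libraries were found among 8078 genes of at least 10 CPM, by the root mean square difference of mean-centred log2 CPM. Tbx21 had Tspan32 (0.23), Rom1 (0.27) and Itgb7 (0.28) nearest, against its own spread of 1.03. Zeb2 had Jhdm1d (0.25) nearest against a spread of 0.91, and Nfil3 had Stk11 (0.18) against 0.70. Runx3 was the third nearest gene to Prdm1 (0.18 against 0.55), the one case where a gene of the 10 was named for another. Id2 (spread 0.25), Gata3 (0.32), Tcf7 (0.34) and Eomes (0.37) varied least over the libraries. Their nearest genes were Ybx1 (0.12), Capns1 (0.16), Sept6 (0.20) and Wbp2 (0.13). Tox had Ids (0.19 against 0.47) nearest.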

How the data were processed

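The tools named in the submitters' processing notes are cutadapt 1.9, STAR 2.5.2a and RSEM 1.2.30, with genome build GRCm38. The authors deposited expected counts from RSEM for 38215 genes in 24 libraries, of which 5.47% were not whole numbers. Their settings, the annotation release and the strand setting were not given in the sources used here. Libraries came from a directional poly(A) kit, per the labels' protocols. An antisense gene that overlaps Zeb2, Gm13476, held 5.72% as many counts as Zeb2, and genes that overlap other members held under 0.5%.

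Counts were rounded and tested with the quasi-likelihood test of edgeR 4.0.16 in R 4.3.3, after TMM scaling and the default filterByExpr filter. P-values were adjusted by Benjamini-Hochberg over all tested genes, and calls were made at 0.05. The 16 spleen libraries were fitted together for comparisons within spleen, the 8 lung libraries for KO against WT in lung, and all 24 for comparisons across tissues. An SE is the size of a log2 change over the square root of its F statistic, and levels were scaled by TMM totals. Log2 ratios used a prior count of 2 and exact permutation tests. Exon lengths joined all exons of a gene in a GENCODE annotation, and promoter stretches came from RefSeq. The scripts were tested on simulated data. Alternatives were DESeq2 1.42.0, its size factors, limma 3.58.1 voom with library weights, other filters, an offset for exon length and GC content, leaving out mitochondrial genes, other sets of libraries, a replicate block and each library left out. Offset and shallow-library values for the lists were added after the data were seen.

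The members and the lists were chosen with earlier results of these data known. Named genes were the 10 members, Fcer1g, listed relatives and partners that passed with at least 1 CPM, up to 4 genes per comparison by smallest p from the other lists, and the 3 nearest profiles of each member. The text names a share of these. Lists not named in the report summed, at most in any library, to 217 CPM for B cells, 141 for endothelium, 54.4 for melanocytic cells, 31.7 for neutrophils, 8.46 for erythroid and 2.82 for type 2 innate lymphoid cells.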

Additional observations from a re-analysis of the deposited data

Results flagged for a closer look

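Among 60 sets of 4 libraries (10 genes in 6 groups), 6 held 1 library whose gap to the nearest other exceeded the 95% limit of Dixon's test. Chance gives about 1 in 20 such sets. Zeb2 was at 119 CPM in lung WT 1 against 176 to 185 in the other 3, and Nfil3 was at 249 CPM in the same library against 215 to 220. Lung WT 1 is 1 of the 2 shallow libraries. Gata3 was at 90 CPM in naive WT 1 against 66.3 to 68.8, and at 67.6 CPM in lung KO 4 against 84.8 to 88.2. Id2 was at 545 CPM in lung KO 2 against 587 to 591. Tox was at 52.1 CPM in naive WT 2 against 59.8 to 61.2.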

How the results depend on the processing

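For KO against WT in naive spleen, the count of 1 of the 10 genes became 2 with DESeq2, with its size factors in edgeR, with the stricter filter and with all 24 libraries fitted. It became 3 with voom and library weights and without the 2 shallow libraries, and 0 with the length and GC offset. Leaving out 1 library at a time gave 0 (without naive WT 1) to 3 (without naive KO 1). With voom the KO-by-IL-15 interaction had 1 call (Zeb2, −0.78, adjusted p = 0.0186), as did the KO-by-lung interaction (Zeb2, −0.72, adjusted p = 0.042). Counts of the other 8 comparisons stayed within 1.5 times of those reported under every alternative run. Eomes in WT lung against naive spleen was the 1 value of the 10 genes that turned sign after a call, at −0.06 (adjusted p = 0.622) with the length and GC offset. Of the 464 called values of the listed genes outside the 10, 20 turned sign with that offset, among them Zeb1 under IL-15 in WT (−0.15) and Gzma in naive KO (0.08), and 0 without the 2 shallow libraries. Of the values of the 10 genes under alternatives, 2112 stayed on their side of the threshold (69 of them uncalled and of the other sign), 60 gained a call and 27 lost one, and the cause was not tested. Of 270 ratio values 3 had the other sign, and 0 changed their call with another prior count. The ratio values without 1 library were given no new test. Leaving out 1 of 4 libraries cannot move a group mean by the whole spread. Those values therefore cannot show whether the ratio calls hold.

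Libraries of the same replicate number did not deviate together (correlations of −0.19 to 0.247 between groups), so the numbers were not taken as pairs. With the replicate block the counts were 1, 0 and 0 for KO against WT in naive spleen, IL-15 and lung, 6 in both genotypes for IL-15 against naive, and 7 (WT) and 6 (KO) for lung against naive spleen. The block ended the Tcf7 call under IL-15 in KO (−0.44, adjusted p = 0.0586). In naive spleen, with 4 libraries a group and totals down to 9.68 M counts, the SE of the log2 change between KO and WT ran from 0.11 (Nfil3) to 0.19 (Tcf7 and Tox) over the 10 genes.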
